A study of Mus musculus with 8 samples.

Results

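The genes described here encode the proteins of the cytosolic ribosome, the particle that translates messenger RNA. They were chosen by symbol: every gene whose name begins with Rpl, Rplp or Rps followed by a number, leaving out the Rps6k kinases and names marked as pseudogenes. The rule found 85 of the 23354 gene symbols in the deposited tables, 52 named for the large subunit and 33 for the small subunit. All but Rpl3l and Rpl10l reached 1 FPKM in at least 2 libraries and could be tested, so 83 of the 10934 tested genes were members. FPKM are fragments scaled to transcript length and to the size of the library. Rps19bp1 fits the name rule but encodes a binding partner of Rps19, and Rps4y2 lies at a locus that GENCODE M21 annotates as the transcribed pseudogene Rps4l. The rule misses ribosomal proteins with other names, and 4 of these that could be tested are given as a separate list.

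Messenger RNA was sequenced from macrophages grown for 7 days from the bone marrow of 8-week-old C57BL/6J mice in L929-conditioned medium. All 8 libraries carried floxed Ern1, the gene of the endoplasmic reticulum stress sensor IRE1α, and 4 of them also carried Lyz2-Cre, which drives recombination in myeloid cells (Ern1f/fLyz2-Cre). Per genotype, 2 libraries were untreated controls and 2 had received IL-4, the cytokine of alternative activation, at 20 ng/ml for 24 hours. Libraries numbered 1 are called set 1 and those numbered 2 set 2; the labels name no separate animals or cultures, so p-values measure the spread between these libraries, which may be technical.

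Most ribosomal proteins are present as a single copy per ribosome, the acidic stalk proteins being an exception, and their genes are among the most active in growing cells. Large subunit proteins line the peptide exit tunnel and carry the acidic stalk that recruits translation factors, while small subunit proteins surround the decoding centre and the mRNA channel. Their mRNAs typically begin with a C followed by a run of pyrimidines, the terminal oligopyrimidine start, through which mTORC1 and LARP1 control their translation and stability. The RNA levels given below say nothing of translation.

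Start sequences were compared because they are the feature that the family is best known to share. RefSeq start sites (GRCm38.p6) were matched for 64 of the 85 members, with 76 annotated starts among them. A C at the annotated start followed by 4 bases that were each C or T was present at 13 of these starts (17.1%), against 2.51% of the 32851 annotated mouse starts in the table. Within 15 bases of the start, such a run was present at 57.9% against 36.4%. The sequences below were picked from the 13 matching starts, so each shows the run, and belong to members whose values are described later. Other members described later, such as Rpl41, Rpl39 and Rps23, had no such match at the start. Each sequence runs from 40 bases before the annotated start to the fifteenth base of the transcript. Capitals mark the unbroken pyrimidine run from the start.
Rpl38 (chr11:114668540-114668594, + strand): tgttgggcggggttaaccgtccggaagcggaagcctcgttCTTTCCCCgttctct
Rpl35a (chr16:33056442-33056496, + strand): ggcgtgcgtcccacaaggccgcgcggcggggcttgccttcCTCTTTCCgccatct
Rps10 (chr17:27635230-27635284, - strand): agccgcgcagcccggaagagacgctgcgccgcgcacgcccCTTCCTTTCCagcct
Rps18 (chr17:33955651-33955705, - strand): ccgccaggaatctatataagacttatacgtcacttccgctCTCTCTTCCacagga
Rps21 (chr2:180257339-180257393, + strand): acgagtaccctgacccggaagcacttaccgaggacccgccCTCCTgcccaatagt
Rps27 (chr3:90213634-90213688, - strand): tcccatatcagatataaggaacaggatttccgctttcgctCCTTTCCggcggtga

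Windows of 300 bases around the annotated start, bases after it included, were searched for the letters CCGGAAG, the core bound by ETS-family factors such as GABP. These letters were present on either strand at 34.2% of the members' starts against 8.86% of all starts. They can be read in the Rpl38, Rps10 and Rps21 sequences above. The letters AAGATGGC, a core of the YY1 motif, were present on either strand at 10.5% against 2.75%. TATAAA on the gene strand 6 to 50 bases before the start was found at 1 start (1.32%, against 2.49%). A match describes the letters in this window and is not a measured binding site.

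Ribosomal protein mRNAs made up a large part of the measured RNA. Their summed FPKM was 17.0% and 17.3% of the library total in the set 1 controls (Ern1f/f, then Ern1f/fLyz2-Cre) and 18.3% and 18.4% in the set 2 controls. With IL-4 the shares were 17.0% and 20.5% in set 1 and 17.5% and 18.1% in set 2, so the highest share was that of Ern1f/fLyz2-Cre replicate 1 with IL-4. FPKM weights short transcripts upward: of the fragments implied by the authors' confidence intervals, other than those of the ribosomal RNA precursor Rn45s, the members took 4.0% to 5.23%. Of the members, 74 had a mean above 100 FPKM and 37 a mean above 1000. The median member stood at 896 FPKM, against 22.2 for 76 mitochondrial ribosomal protein genes and 9.42 for all tested genes. The median level was 804 FPKM for 50 tested large subunit genes and 921 for 33 small subunit genes.

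**Figure D1:**
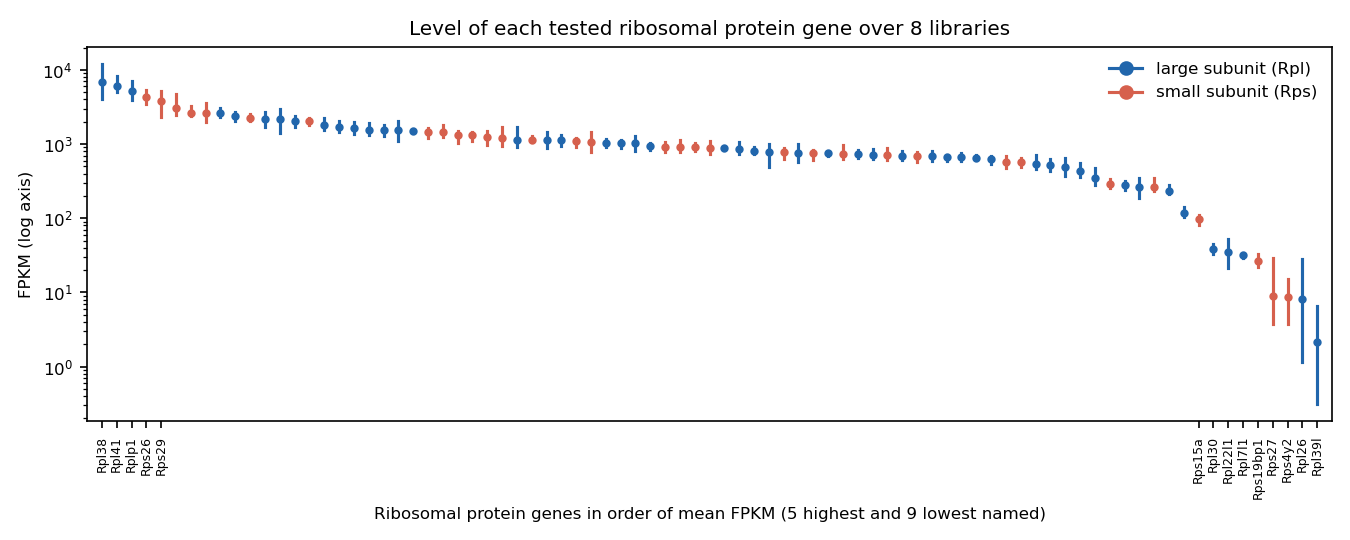
Level of each of the 83 tested members on a log axis of FPKM, ordered by mean; points are means over 8 libraries and bars run from the lowest to the highest library. The 5 highest and 9 lowest members are labelled. Most members lie above 100 FPKM, while Rps15a, Rpl30, Rpl22l1, Rpl7l1, Rps19bp1, Rps27, Rps4y2, Rpl26 and Rpl39l lie below 100.

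The 5 highest members by mean were Rpl38, Rpl41, Rplp1, Rps26 and Rps29. Rpl41, which encodes the smallest and most basic protein of the ribosome, read 6621, 6054, 6517 and 8169 FPKM in set 1 (Ern1f/f control, Ern1f/f IL-4, Ern1f/fLyz2-Cre control, Ern1f/fLyz2-Cre IL-4) and 6073, 5184, 5107 and 5270 in set 2. Rplp1, an acidic protein of the stalk, read 5523, 6049, 5635 and 6992 FPKM in set 1 and 4574, 3924, 4092 and 4355 in set 2, in the same order. All 4 values of Rplp1 in set 1 were above all 4 in set 2. The order of the top 3 is not settled by these data, since the ranges of Rpl38 (4097 to 12019 FPKM), Rpl41 (5107 to 8169) and Rplp1 (3924 to 6992) overlap.

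Rpl38, a large subunit protein known in mice for its part in translating Hox mRNAs, varied most among the abundant members. It read 7665, 5978, 12019 and 11542 FPKM in set 1 and 5317, 4097, 4873 and 4239 in set 2, so both set 1 libraries with Lyz2-Cre stood apart. The length by which its fragments had been divided, computed from the width of the authors' intervals, was only 36.1 to 47.2 bases in set 1 and 65.9 to 68.6 in set 2. With that divisor removed, Rpl38 held 277, 269, 453 and 545 in fragments scaled only to library size (FPM) in set 1 and 365, 270, 321 and 279 in set 2. The higher values in the Lyz2-Cre libraries of set 1 were therefore present in the fragments as well, whereas the FPKM excess of the set 1 Ern1f/f libraries over set 2 was not.

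Rps27, which encodes a zinc-finger protein of the small subunit, had 1 high value that went with a short divisor. It read 5.90, 3.74, 6.97 and 28.9 FPKM in set 1 and 7.65, 5.73, 5.79 and 7.56 in set 2, so Ern1f/fLyz2-Cre IL-4 replicate 1 stood far above the rest. The implied effective length was 57.9 bases in that library and 235 to 265 in the other 7. It held 1.67 FPM there, inside the range of 0.890 to 2.03 of the others, on 71 fragments. The log2 difference between genotypes with IL-4 was 1.5 ± 0.56 (SE) in FPKM (adjusted p = 1.0, limma) and 0.38 in FPM.

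**Figure D2:**
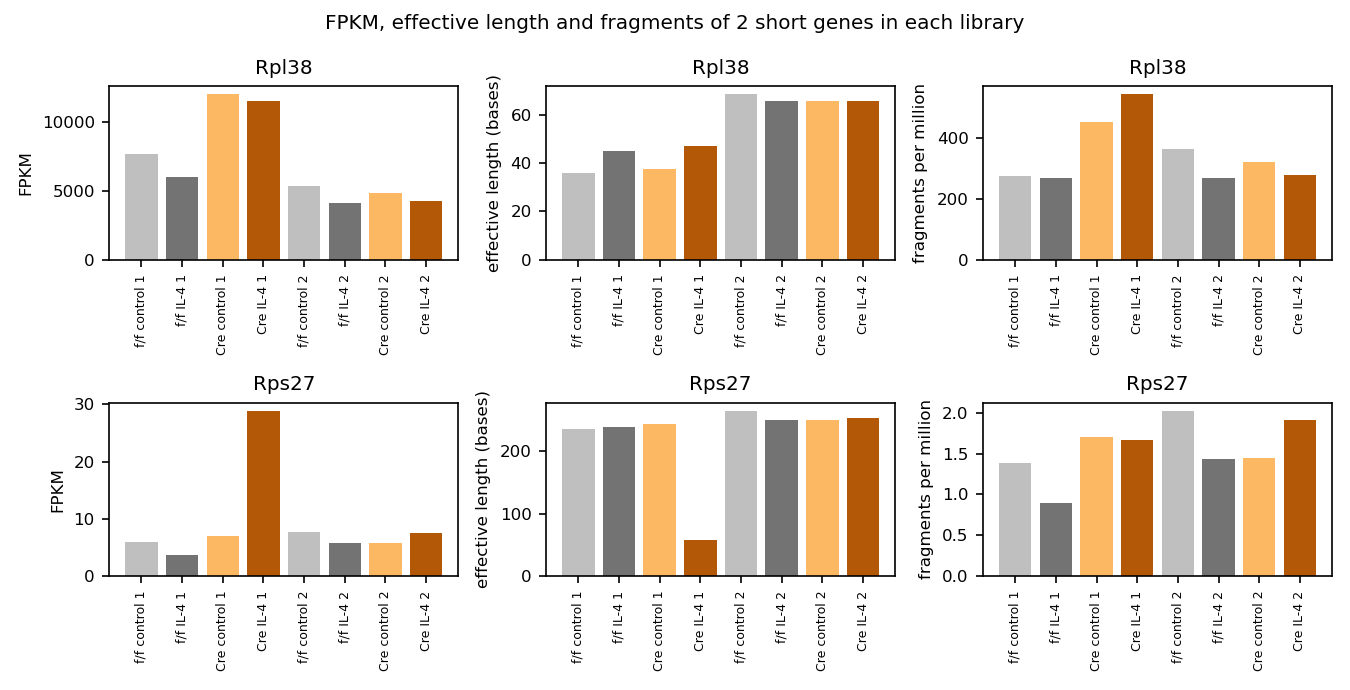
Bars give the FPKM, the effective length implied by the authors' intervals and the FPM (fragments scaled to library size) of Rpl38 (top) and Rps27 (bottom) in each library; f/f is Ern1f/f, Cre is Ern1f/fLyz2-Cre, and the final digit is the replicate number. The Rps27 peak of 28.9 FPKM coincides with an effective length of 57.9 bases and is absent from the fragments.

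A few core members read unusually low for proteins that are present in most ribosomes. Rpl26, at the mouth of the exit tunnel, read 1.15, 15.2, 10.5 and 27.8 FPKM in set 1 and 2.23, 2.43, 1.51 and 5.17 in set 2, on 6 to 192 implied fragments. Rpl30, a large subunit protein near the subunit interface, stayed between 33.5 and 44.98 FPKM in every library. Most members have near-identical relatives elsewhere in the genome: 79 of 85 had at least 1 other GENCODE M21 gene with 90% identity over 200 bases, with a median of 9 such genes and up to 94. How the authors' counting divided reads among such copies is not given in the sources used here, so levels of single members are uncertain. Across the 83 tested genes the number of copies and the mean FPKM had a Spearman rho of -0.02, which describes genes and not replicates.

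In cells titled Ern1f/f, ribosomal protein mRNAs differed little between IL-4 and control. No member passed an adjusted p of 0.05 (limma on log2(FPKM + 1), Benjamini-Hochberg over 10934 genes), and the share of all genes called was 0% higher and 0% lower. With the replicate number as a block 0 members passed, against 1.26% of genes called higher and 0.86% lower. An unadjusted p under 0.05 was reached by 0 members without the block (6.16% of all genes) and by 4, all lower, with it (16.3%). The median log2 difference of the members was -0.08, with -0.01 in set 1 and -0.18 in set 2, beside -0.04 for all tested genes. The sign of the pooled median depended on scaling, since it became 0.01 when FPKM were rescaled to a common total. It was -0.158 without Ern1f/f control replicate 1 and -0.004 without Ern1f/f control replicate 2. Both IL-4 libraries were below both controls for 17 members (20.5%, against 17.5% of all genes) and above both for 2 (2.41%, against 12.7%). Compared within sets, 38 members were lower with IL-4 in both (37.1% of all genes) and 2 higher in both (24.1%). This split depended on scaling: on FPKM rescaled to a common total 22 were lower and 20 higher (24.6% and 38.8% of all genes), and after quantile normalization 30 and 7 (32.2% and 30.6%).

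Among members with a mean of at least 10 FPKM, the 3 lowest differences with IL-4 in Ern1f/f cells were those of Rpl37, Rps21 and Rpl38. Rpl37, a zinc-binding large subunit protein, read 325 and 265 FPKM in controls and 245 and 189 with IL-4, without overlap of the groups (log2 -0.45 ± 0.29 SE, adjusted p = 0.999 by limma, 0.177 with the block). Rps21, of the small subunit, read 3180 and 2602 FPKM in controls and 2259 and 2004 with IL-4 (log2 -0.44 ± 0.25 SE). The 3 highest were Rpl22l1, Rpl12 and Rpl3. Rpl3, near the peptidyl transferase centre, read 490 and 490 FPKM in controls and 563 and 511 with IL-4 (log2 0.13 ± 0.14 SE), and Rpl12, at the base of the stalk, differed by 0.34 in set 1 and -0.02 in set 2.

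In cells titled Ern1f/fLyz2-Cre the same treatment went with higher FPKM of most members, mainly in set 1 and by an amount that depended on scaling. No member passed (limma, adjusted p of at least 0.552), where 0.0549% of all genes were called higher and 0% lower. With the block 0 members passed, the smallest adjusted p being 0.103 for Rps23, against 1.79% of genes called higher and 1.53% lower. An unadjusted p under 0.05 was reached by 4 members without the block (8.53% of all genes) and by 15 with it (21.5%), all higher. The median log2 difference was 0.17, with 0.31 in set 1 and 0.06 in set 2, beside -0.07 and 0.04 for all tested genes. It was 0.08 without Ern1f/fLyz2-Cre IL-4 replicate 1 and 0.28 without Ern1f/fLyz2-Cre IL-4 replicate 2. Compared within sets, 45 members were higher with IL-4 in both (31.3% of all genes) and 5 lower in both (33.6%). On FPKM rescaled to a common total the median was 0.12, with 35 members higher and 8 lower in both sets (25.9% and 41.5% of all genes). After quantile normalization it was 0.04, with 28 higher and 18 lower (34.1% and 33.8%). Both IL-4 libraries were above both controls for 31 members (37.3%, against 17.7% of all genes) and below both for Rps20 alone (1.20%, against 16.6%).

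Rps23, a decoding-centre protein, read 757 and 876 FPKM in Ern1f/fLyz2-Cre controls and 1084 and 1110 with IL-4, without overlap (log2 0.43 ± 0.16 SE). The 3 highest differences among members with a mean of at least 10 FPKM were those of Rpl36a, Rps29 and Rps18. Rpl36a, at the exit site of transfer RNA, read 927 and 1035 FPKM in controls and 1716 and 1215 with IL-4 (log2 0.56 ± 0.20 SE, adjusted p = 0.552 by limma). Rps18, in the head of the small subunit, read 964 and 1083 in controls and 1709 and 1208 with IL-4 (log2 0.49 ± 0.24 SE), with most of the difference in set 1. The 3 lowest were Rps10 (log2 -0.15), Rpl38 (log2 -0.13) and Rps9 (log2 -0.12), and for each of them the groups overlapped. Rpl22, whose protein represses its own paralog's mRNA in mice, was alike in the sets at 0.33 and 0.34, from 105 and 112 to 132 and 143 FPKM (adjusted p = 0.553 by limma).

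Between genotypes, control cells hardly differed. No member passed with or without the block (limma), and 0% of all genes were called in either direction. An unadjusted p under 0.05 was reached by 0 members, against 0.247% of all genes without the block and 1.25% with it. The median log2 difference, Ern1f/fLyz2-Cre minus Ern1f/f, was -0.05 (-0.04 in set 1 and -0.09 in set 2) beside -0.00 for all tested genes, and it was 0.001 on FPKM rescaled to a common total, which removes its sign. It was also 0.014 without Ern1f/f control replicate 2, -0.142 without Ern1f/f control replicate 1, and -0.010 and -0.101 without Ern1f/fLyz2-Cre control replicates 1 and 2. Within sets, 43 members were lower in both (18.8% of all genes) and 3 higher in both (23.3%). On FPKM rescaled to a common total 20 were lower and 12 higher (12.3% and 37.1% of all genes), and after quantile normalization 23 and 10 (25.9% and 19.5%). The groups did not overlap for 6 members, all lower in Lyz2-Cre (7.23%, against 5.29% of genes lower and 5.54% higher). Rpl36al had the lowest difference, with 404 and 560 FPKM in Ern1f/f and 361 and 403 in Ern1f/fLyz2-Cre (log2 -0.32 ± 0.22 SE), followed by Rps29 (log2 -0.21) and Rplp0 (log2 -0.19). Rpl22l1 (log2 0.30), Rpl38 (log2 0.26) and Rpl35a (log2 0.04) were highest.

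With IL-4, nearly every member had a higher value in Ern1f/fLyz2-Cre than in Ern1f/f cells in both sets, by a small amount. This held for 75 of 83 members (90.4%), against 28.8% of all tested genes, and none was lower in both sets (17.3% of all genes were). The median log2 difference was 0.19, with 0.28 in set 1 and 0.14 in set 2, beside -0.03 and 0.06 for all tested genes. No single member passed by limma with or without the block (adjusted p = 1.0 for every member), where 0% of all genes were called without the block and 0.00915% lower with it. An unadjusted p under 0.05 was reached by 4 members without the block (0.384% of all genes) and by 12 with it (1.73%), all higher. Both Lyz2-Cre libraries lay above both Ern1f/f libraries for 41 members (49.4%, against 10.8% of all genes), and for none the reverse (4.63% of all genes). These Lyz2-Cre and Ern1f/f IL-4 libraries are the same ones that enter the IL-4 comparisons above, so the comparisons share samples.

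**Figure D3:**
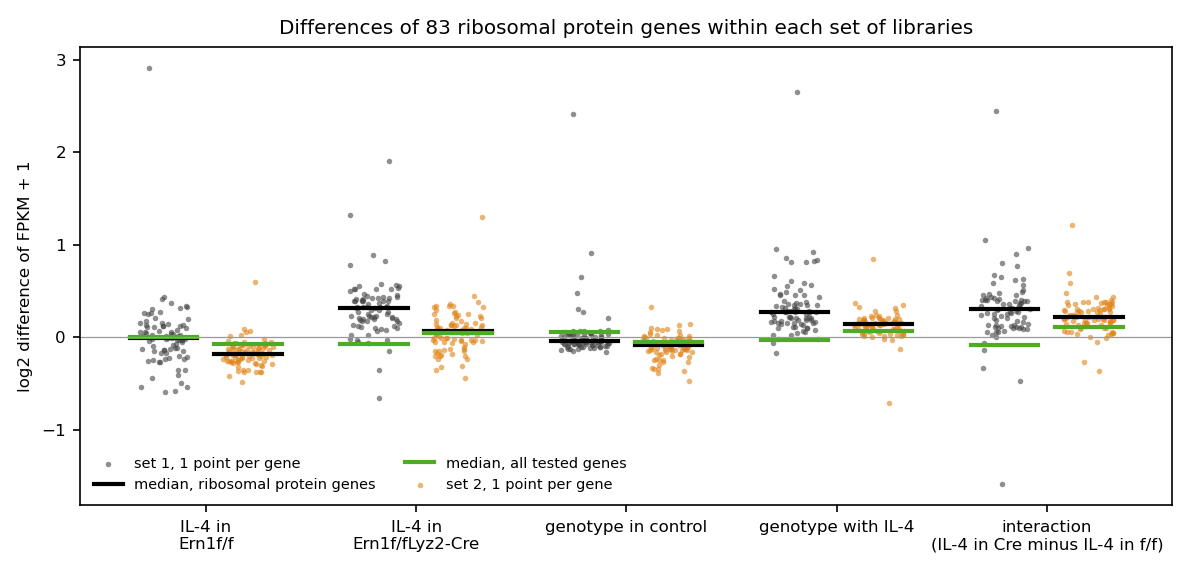
Differences in log2(FPKM + 1) of the 83 tested members in 5 comparisons, 1 point per gene, for set 1 (grey) and set 2 (orange); black bars are the members' medians and green bars the medians of all tested genes. f/f is Ern1f/f and Cre is Ern1f/fLyz2-Cre; genotype differences are Cre minus f/f. With IL-4 the members' genotype medians are 0.28 and 0.14, against -0.03 and 0.06 for all tested genes.

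The size of this genotype difference with IL-4 depended on a library and on scaling. Without Ern1f/fLyz2-Cre IL-4 replicate 1 the median was 0.10 in place of 0.19. On FPKM rescaled to a common total it was 0.09, where the median of all tested genes was -0.07, and 56 members were higher in both sets and 10 lower (12.8% and 37.7% of all genes). After quantile normalization it was 0.06, with 31 members higher in both sets and 14 lower, against 22.7% and 25.9% of all tested genes. Quantile normalization gives every library the same distribution of values. Since members are many of the highest genes in each library, it can by itself shrink a shift that they share, in every comparison. FPM, with no division by length, gave 0.20 and 74 members higher in both sets. FPKM are relative to the library, so more RNA of these genes per cell, less RNA of other genes, and a changed mixture of cells cannot be told apart.

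Rps29, a zinc-finger protein of the small subunit, read 2343 and 4278 FPKM in Ern1f/f with IL-4 and 4454 and 5218 in Ern1f/fLyz2-Cre with IL-4. The groups did not overlap, and the difference was 0.93 in set 1 and 0.29 in set 2 (log2 0.61 ± 0.42 SE). Rpl39, a short protein lining the exit tunnel, read 1407 and 2312 FPKM against 2541 and 2987, without overlap (log2 0.61 ± 0.25 SE). Rpl38 followed (log2 0.50 ± 0.61 SE), with 0.95 in set 1 and 0.05 in set 2. At the low end were Rpl30 (log2 -0.07), Rps2 (log2 0.00) and Rpl4 (log2 0.02). Whether the shift was uniform across the family was not tested.

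**Figure D4:**
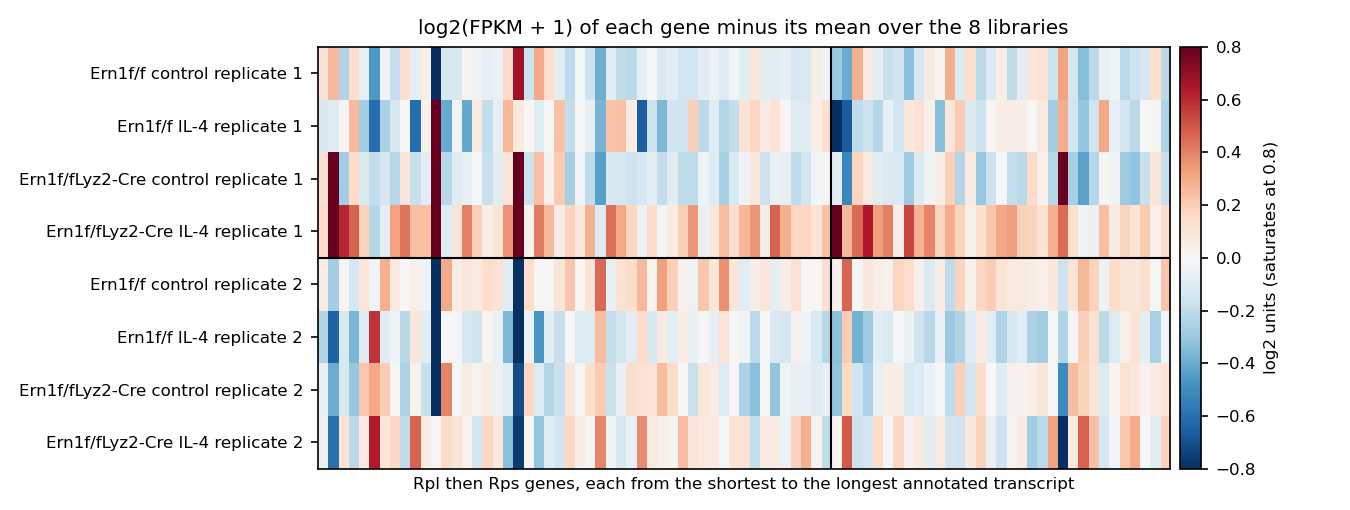
Colour gives log2(FPKM + 1) of each tested member minus its mean over 8 libraries (scale saturating at 0.8), with libraries in rows (set 1 above the line) and Rpl then Rps genes in columns from short to long annotated transcripts. Ern1f/fLyz2-Cre IL-4 replicate 1, the library with 20.5% of its FPKM in these genes, is the reddest row.

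The interaction asks whether IL-4 went with a different change in the 2 genotypes. No member passed with or without the block (limma, adjusted p = 1.0 for every member; 0% of all genes were called). An unadjusted p under 0.05 was reached by 0 members without the block (0.174% of all genes) and by 6 with it (0.942%), all higher. The median of the members was 0.26, with 0.30 in set 1 and 0.22 in set 2, beside -0.08 and 0.11 for all tested genes, and 74 of 83 members were positive in both sets (89.2%, against 26.7% of all tested genes) and 1 was negative in both (18.2% of all genes). Of the members, 17 (20.5%) were lower with IL-4 in both sets of Ern1f/f and higher in both sets of Ern1f/fLyz2-Cre, a pattern held by 3.15% of all tested genes. Among them were Rpl36al, Rpl41, Rps23 and Rps29, whose values are given above or below. Rps27 was counted too, but in FPM, without the short divisor described above, its Lyz2-Cre values in set 1 were 1.70 in control and 1.67 with IL-4. No member had the opposite pattern.

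Rescaling to a common total moved the interaction median of all tested genes by more than 0.1, from 0.01 to -0.12. The members' median was then 0.10, which is 0.23 above that of all tested genes, close to the 0.24 found without rescaling, and 40 members were positive and 9 negative in both sets (10.7% and 50.5% of all genes). Quantile normalization lowered the excess to 0.07, with 35 positive and 13 negative (27.3% and 28.2%). Without Ern1f/fLyz2-Cre IL-4 replicate 1 the members' median was 0.17, and it was 0.33 without Ern1f/f control replicate 1 or without Ern1f/fLyz2-Cre IL-4 replicate 2. The 3 highest interactions among members with a mean of at least 10 FPKM were those of Rps29 (log2 0.82 ± 0.60 SE), Rpl39 (log2 0.67 ± 0.35 SE) and Rps28 (log2 0.64 ± 0.38 SE). The 3 lowest were Rpl30 (log2 -0.09), Rpl22l1 (log2 -0.08) and Rps2 (log2 0.00).

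The pooled medians of the large and small subunits differed by no more than 0.014 in the 5 comparisons, though without Ern1f/f control replicate 2 the gap for IL-4 in Ern1f/f was -0.088. Within sets the medians lay furthest apart for IL-4 in Ern1f/fLyz2-Cre. There they were 0.255 (large) and 0.39 (small) in set 1, and 0.07 and 0.04 in set 2. The values that follow are pooled over the sets. With IL-4 in Ern1f/f the medians were -0.08 for 50 large and -0.08 for 33 small subunit genes, and in Ern1f/fLyz2-Cre 0.17 and 0.18. Between genotypes they were -0.06 and -0.05 in control cells and 0.19 and 0.20 with IL-4, and the interaction medians were 0.26 and 0.26. For the genotype difference with IL-4 the interquartile range was 0.12 to 0.27 over large subunit genes and 0.12 to 0.28 over small subunit genes.

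Members with short transcripts had larger differences than longer ones between genotypes with IL-4, mostly in set 1; no test was made of this split. An effective length was used for this, since the longest annotated transcript is far from the measured one for Rps20, at 3706 annotated nt against an effective length of 274.5 bases. For 27 members under 300 bases the median genotype difference with IL-4 came to 0.43 (set 1) and 0.15 (set 2), against 0.21 and 0.13 for 56 longer members. In FPM the short members had 0.46 and 0.15. Split at 600 nt of annotated transcript, 19 short members had medians of 0.46 and 0.18 and the longer ones 0.22 and 0.13. Across the 83 genes Spearman's rho between effective length and this difference was -0.38 in set 1 and -0.13 in set 2, which describes genes that share libraries. Short members with IL-4 in Ern1f/f cells had a median of -0.14, against -0.06 for longer ones. A list of 150 other short transcripts had genotype medians with IL-4 of 0.27 (set 1) and 0.02 (set 2), so short genes outside the name rule also read higher in set 1. In FPM the medians of this list were 0.17 and 0.01. It was not cleared of mitochondrial ribosomal proteins, ribosomal proteins with other names, or names marked as pseudogenes.

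**Figure D5:**
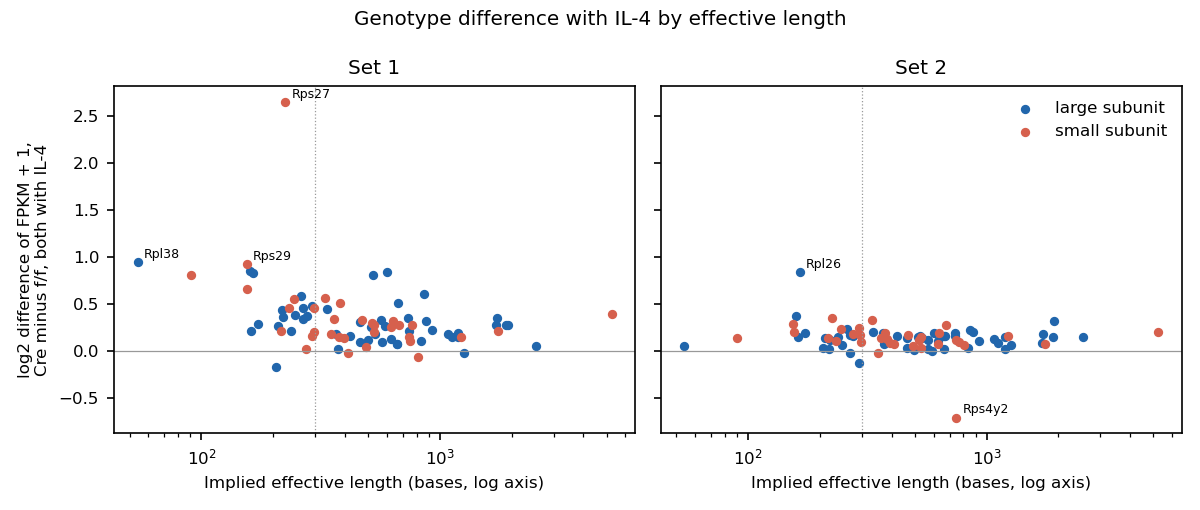
Genotype difference with IL-4 (log2(FPKM + 1), Ern1f/fLyz2-Cre, written Cre, minus Ern1f/f, written f/f) of each tested member against its implied effective length on a log axis, for set 1 (left) and set 2 (right); the dotted line marks 300 bases. In set 1 the short members reach higher, with medians of 0.43 below and 0.21 above the line, and in set 2 the medians are 0.15 and 0.13.

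The list of paralogs that replace or accompany a core protein held 8 members, of which 6 could be tested. Rps4x, itself a core gene, was counted among these. Rpl10l, a retrogene used in male germ cells, was listed at 0 in all libraries but Ern1f/f control replicate 1 (0.0355 FPKM), and Rpl3l, the form of striated muscle, did not exceed 0.292 FPKM. Rpl39l, also known from male germ cells, read 3.09, 1.71, 6.67 and 3.85 FPKM in set 1 and 0.463, 0.313, 0.563 and 0.504 in set 2, with every set 1 library above every set 2 library. Rpl22l1 read 23.8, 21.3, 28.8 and 28.2 FPKM in set 1 and 32.6, 49.9, 41.2 and 52.0 in set 2, below Rpl22 at 105 to 143 in every library. Rps27l, the p53-responsive relative of Rps27, read 232 to 348 FPKM and stood far above Rps27 itself. Rpl36al, at 361 to 560 FPKM, was below Rpl36a, and Rpl7l1, a nucleolar relative of Rpl7, stayed within 28.9 to 34.0 FPKM. Rps4x, the X-linked core gene, read 787 to 1034 FPKM in set 1 and 1204 to 1471 in set 2, while Rps4y2 read 10.3 to 14.99 and 3.75 to 7.19.

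On FPKM as deposited, most lists related to the ribosome also had higher medians with IL-4 in Ern1f/fLyz2-Cre than in Ern1f/f cells. These differences were smaller than that of the members, and the exception was the list of regulators. The list medians were not computed on FPKM rescaled to a common total. On that scale the genotype median of all tested genes with IL-4 moved from 0.02 to -0.07, so small list medians may not keep their sign. No gene of these lists passed in any comparison with or without the block (limma). For mitochondrial ribosomal proteins (76 tested) the genotype median with IL-4 was 0.12, with 49 genes higher in both sets (64.5%), and for translation factors and other genes with a terminal oligopyrimidine start (18 tested) it was 0.05, with 9 higher in both sets (50%), beside 28.8% of all tested genes. Ribosome biogenesis factors (39 tested), which build the particle in the nucleolus, had a median with IL-4 of 0.16 in Ern1f/f, which was 0.39 in set 1 and -0.03 in set 2, with 15 genes higher in both sets (38.5%, against 24.1% of all genes). In Ern1f/fLyz2-Cre their median with IL-4 was 0.34, with 0.37 in set 1 and 0.265 in set 2, and 36 genes were higher in both sets (92.3%, against 31.3%). For the 4 tested ribosomal proteins outside the name rule the genotype median with IL-4 was 0.07, with 0.06 in set 1 and 0.09 in set 2. All 4 were higher in both sets (100%, against 28.8% of all tested genes). The 14 regulators of ribosomal protein synthesis had a genotype median with IL-4 of -0.02.

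Several properties of the libraries moved alongside the genotype and the set. The sum of 9 macrophage markers was 8495 to 21900 FPKM in set 1 and 4511 to 20210 in set 2, and it was lower in Lyz2-Cre within each set and treatment. Without Lyz2, the locus that holds Cre, 8 markers summed to 2657 to 3786, and the genotypes lay closer. In set 1 these sums were 3786 (Ern1f/f) and 3682 (Lyz2-Cre) in controls, and 2876 and 2716 with IL-4. In set 2 they were 2794 and 2744 in controls, and 2657 and 2939 with IL-4, where Lyz2-Cre was higher. The 7 fibroblast markers summed to 66.0 to 398 FPKM in set 1 and 1.66 to 6.10 in set 2, and in set 1 they were higher in Lyz2-Cre. The 10 markers of cycling cells summed to 252 to 293 FPKM in controls and 421 to 519 with IL-4. The 7 neutrophil markers (2 tested) summed to 6.04 to 40.1 FPKM, and the 5 B cell markers (1 tested) to 0.791 to 2.37 in set 1 and 5.3 to 16.8 in set 2. In the cycling, neutrophil and B cell lists 1 gene made up most of the highest sum. The highest values of a single gene were 449, 33.1 and 16.6 FPKM, in that order. The sums of T or NK cell (6 genes, 0.277 to 1.51 FPKM), dendritic cell (5, 0.430 to 1.21) and erythroid markers (6, 0.0188 to 0.961) stayed below 2 FPKM in every library. The part of these cells in the ribosomal protein values was not tested. Ern1 itself read 7.43 to 14.3 FPKM over the 8 libraries, and a gene-level value does not check the loss of an exon. Depth, as implied by the authors' intervals, ran from 21500000 to 37900000 fragments, and Ern1f/fLyz2-Cre IL-4 replicate 1 was the deepest.

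In the genotype field of the labels every library numbered 1 is Ern1f/f and every library numbered 2 Ern1f/fLyz2-Cre, against the title in 4 of 8 libraries. Groups follow the titles. Under that field genotype and set cannot be told apart, and the genotype median of the members with IL-4 is -0.13 in place of 0.19.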

How the data were processed

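The authors deposited 1 table per library with gene-level FPKM, a 95% confidence interval and a status; TopHat 1.4.1, Cufflinks 1.3.0 and mm10 are named in the submitters' processing notes, and their gene models are not given in the sources used here. Rows that share a symbol were summed. Genes reaching 1 FPKM in 2 or more libraries were fitted as log2(FPKM + 1), a scale that understates the change of low genes, with limma 3.58.1 in R 4.3.3 (4 group means, eBayes with trend, two-sided, Benjamini-Hochberg over 10934 genes, threshold 0.05). Members and lists were chosen with earlier results of these data known. No read counts were used. A few genes are not reported here by name. Fragments were implied from each interval as (2 × FPKM / half-width) squared, and summed over genes for the depth of each library. As a check, 76.1% to 77.9% of low genes (under 60 fragments) came out within 0.02 of a whole number. Effective length is fragments over FPKM, scaled on 2071 long genes.

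The replicate numbers were checked as pairs: differences between replicates correlated over genes between all 6 pairs of groups (r = 0.69 to 0.83), though the labels do not say what the number marks. On simulated data for IL-4 in Ern1f/f with 10934 genes, the step was tested before use. The planted changes were larger than any median difference of the tested members given here, so recovery of differences that small was not checked. Named genes were the 3 highest and 3 lowest differences per comparison among members with a mean of at least 10 FPKM, the 5 highest and 3 lowest means, the 4 shortest and 4 longest transcripts, the paralogs with their relatives, and untested members. Alternatives covered the block, pseudocount, filter, scaling, variance trend, rows per symbol, status, samples in the fit, the genotype field, length limits and each library left out. Fragments scaled only to library size (FPM: FPKM times effective length / 1000), the effective-length split, members without Rps19bp1 and the block with a library left out were added after seeing the data. Copies were found with BLAST+ 2.17.0 and figures drawn with matplotlib 3.10.9.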

Additional observations from a re-analysis of the deposited data

Results flagged for a closer look

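IL-4 went with lower members' medians in both sets of Ern1f/f (-0.01 and -0.18) and higher ones in both sets of Ern1f/fLyz2-Cre (0.31 and 0.06). The median of the difference between genotypes was 0.255 over the 83 tested members, 0.255 over the 33 small subunit genes and 0.286 over the members of 600 nt or less. The difference of these medians between the genotypes was not tested, and the interaction of no single member passed (limma). The set 1 median in Ern1f/f lies close to 0, so its sign carries little weight, and the pooled Ern1f/f median was 0.01 on FPKM rescaled to a common total.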

How the results depend on the processing

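No member passed in any of the 5 comparisons without the block, and this held for the pseudocounts, filters, scalings, variance models, row choices and FPM tried, and for each library left out (0 to 0 members called). The replicate block also gave 0 members, so it changed no call; with the block and a library left out, Rpl26 alone was called, with 0 to 1 members for IL-4 in Ern1f/f (without Ern1f/f control replicate 2) and 0 to 1 for IL-4 in Ern1f/fLyz2-Cre (without either Ern1f/f control), on few fragments. Of all genes, 0.146% were called higher in the first of these fits and 0.997% and 0.96% in the others (without Ern1f/f control replicates 1 and 2). The cause was not tested.

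Medians of the members moved with scaling. In control cells the genotype median was 0.001 on FPKM rescaled to a common total, 0.003 when that total left out the members, and -0.014 after quantile normalization. With IL-4 it was 0.055 after quantile normalization. The interaction median was 0.104, 0.139 and 0.069 in the same order. With each library left out in turn it ran from 0.169 to 0.331, and the medians ran from -0.158 to -0.004 for IL-4 in Ern1f/f, 0.075 to 0.281 for IL-4 in Ern1f/fLyz2-Cre, -0.142 to 0.014 for genotype in control and 0.096 to 0.27 for genotype with IL-4. The cause was not tested.

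The gap between large and small subunit medians was 0.013 (IL-4 in Ern1f/f) and -0.033 (genotype with IL-4) after quantile normalization. With each library left out it ran from -0.088 to 0.055, -0.07 to 0.012, -0.028 to 0.044, -0.038 to 0.008 and -0.074 to 0.055 over the 5 comparisons (IL-4 in Ern1f/f, IL-4 in Ern1f/fLyz2-Cre, genotype in control, genotype with IL-4, interaction). The gap between short and longer members, -0.071, 0.034, -0.006, 0.117 and 0.05 in the same order, was 0.096 (IL-4 in Ern1f/fLyz2-Cre) and 0.124 (interaction) after quantile normalization. At a limit of 500 nt it was -0.195 (IL-4 in Ern1f/f) and 0.202 (interaction). With each library left out it ran from -0.138 to -0.007, -0.015 to 0.199, -0.028 to 0.07, 0.052 to 0.256 and 0.095 to 0.252.

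With groups from the genotype field in place of the titles, 6, 1, 13, 22 and 0 members of 83 were called in the same order of comparisons, where 20.7%, 11.6%, 34.9%, 29.9% and 0.969% of all genes were called, and the medians were 0.165, -0.071, 0.118, -0.128 and -0.204. The large and small subunit gaps were then -0.039 (IL-4 in Ern1f/f), -0.073 (genotype in control), 0.133 (genotype with IL-4) and 0.076 (interaction), and the short and longer gaps -0.167 (genotype with IL-4) and -0.029 (interaction). Members called there with the sign opposite to that under the titles were, in control cells, Rpl39l (-1.888), Rps4x (0.61) and Rps4y2 (-0.896). With IL-4 they were Rpl18 (-0.391), Rpl26 (-2.233), Rpl37 (-0.547), Rpl38 (-0.995), Rpl39l (-1.367), Rplp0 (-0.467), Rplp1 (-0.654), Rps2 (-0.452), Rps9 (-0.347), Rps10 (-0.354) and Rps26 (-0.414). Under that field each genotype is a single set, so these values compare the sets.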

Other observations

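Pseudogene rows that the name rule leaves out differed between the sets. Rps15a-ps6 read 66.4 to 116 FPKM in set 1 and 0.941 to 1.90 in set 2, and Rplp2-ps1 read 271 to 329 against 24.1 to 28.7. Rpl31-ps12 went the other way, with 73.6 to 132 FPKM in set 1 and 220 to 274 in set 2. Rpl34-ps1, whose row overlaps the locus of Rpl34, read 119 and 159 FPKM in the set 1 controls and 274 and 462 with IL-4, and 17.8 to 58.5 in set 2. Rn45s, the precursor of the ribosomal RNAs, read 1611 to 3861 FPKM in 6 libraries and was listed at 0, with a status that marks too much data, in Ern1f/f IL-4 replicate 2 and Ern1f/fLyz2-Cre control replicate 2. These 2 libraries also had the lowest FPKM totals, 532770 and 536660, against 566070 to 612330 in the others. Both enter the set 2 differences of the members, and any effect there was not tested.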
